A study of Mus musculus with 8 samples.

Results

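Expression of 10 muscle genes was followed across mouse gonads with and without Kdm6b. They were the 4 muscle actins Actc1, Acta1, Acta2 and Actg2, and 6 genes for proteins that work with actin filaments in smooth or striated muscle, Tagln, Myh11, Cnn1, Myl9, Des and Tnnt2. They were matched by gene name among the 48440 genes of the deposited tables, all 10 were found, and they were picked because Actc1 and Acta1 were higher in XX Kdm6b-null gonads than in XX wild type gonads. The XX values therefore chose the set, and they are given below as a description with no test, while the XY values were not used for the choice and were tested.

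The study sequenced polyadenylated RNA from gonads of mouse embryos at embryonic day 11.5 (E11.5), when the gonad of either sex is still bipotential and the testis pathway is being switched on in XY embryos. Kdm6b encodes an enzyme that strips methyl groups from lysine 27 of histone H3, a mark of silenced genes, and the study asked what its loss does to male sex determination. The 4 groups were XX Kdm6b-null, XX wild type, XY Kdm6b-null and XY wild type, all at E11.5 and untreated, with 2 libraries per group, each a pool of 2 pairs of gonads. Although the labels call XX samples pre-granulosa and XY samples pre-Sertoli, no sorting is described, so the values are read as those of whole gonads, and neither the parental strain nor the deleted stretch of Kdm6b is given in the sources used here. It is not stated if a group's pools stem from different litters, so the p-values measure only the spread between these pools. In bulk tissue, fewer cells of a type and less RNA per cell cannot be told apart.

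Actins polymerize into the thin filaments that myosin pulls on. Acta2 and Actg2 encode the actins typical of vascular and visceral smooth muscle, Actc1 that of the heart and Acta1 that of skeletal muscle, but Actc1 and Acta1 are also made in immature muscle of other kinds. Many genes of this group are switched on by serum response factor (SRF), which binds a short sequence called the CArG box and works with the coactivator myocardin or with the myocardin-related factors MRTFA and MRTFB, whose activity follows the state of the actin filaments. In embryonic tissue, smooth muscle cells and pericytes of vessel walls and other contractile mesenchyme make these proteins.

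Kdm6b itself followed the labels in every library. It had 1249 and 1125 normalized counts in the XX Kdm6b-null libraries, against 2218 and 2796 in XX wild type, while the XY Kdm6b-null libraries had 1238 and 1037, against 3399 and 3181 in XY wild type. Each library held 19107103 to 19828638 counts on genes. The gonad somatic genes Gata4, Wt1 and Nr5a1 were present in all 8 libraries, at 1018 to 2632, 3032 to 6297 and 312.6 to 1257 normalized counts. Replicate libraries of every group differed by more than sampling noise, with a median chi-square per gene of 1.27 in XX Kdm6b-null, 4.06 in XX wild type, 2.51 in XY Kdm6b-null and 1.46 in XY wild type. Some genes of other muscle set single XX libraries apart. XX Kdm6b-null replicate 2 was the highest of all 8 libraries for 10 of 18 skeletal muscle genes and for 8 of 20 heart genes. XX and XY values were scaled separately, and some of these genes lie near 0. How often this holds over all genes was not computed, so nothing is read from these counts. Summed, that library had 1058 normalized counts of the skeletal and 1433 of the heart genes, against 362.7 and 998.5 in XX Kdm6b-null replicate 1. For the myogenic factor Myog XX Kdm6b-null replicate 2 had 63.6 normalized counts, against 9.96 in XX Kdm6b-null replicate 1. The embryonic myosin Myh3 stood at 281.9, against 41.9. XX wild type replicate 2 had 73.8 normalized counts of the heart factor Nkx2-5, which lay between 0 and 2.06 in the other 7 libraries. Its other heart genes did not go with this, as its sum over the 20 heart genes was 842.6, the lowest of the XX libraries.

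Actc1 differed most between the XX groups. It had 1395 and 1796 normalized counts in the XX Kdm6b-null libraries, against 208.6 and 355.0 in the XX wild type libraries. Both null libraries lay well above both wild type libraries, and the lower null library held 3.93 times the count of the higher wild type library. The means were 1596 ± 284 in XX Kdm6b-null and 282 ± 104 in XX wild type (SD, n = 2 each), a 5.66-fold difference and a difference of 2.54 in mean log2(normalized count + 1), the scale of all log2 values here. That difference was the 8th highest among the 17028 genes kept in XX, those with a mean of at least 10 normalized counts over the 4 libraries of the sex. Actc1 (ENSMUSG00000068614.7) lies on the minus strand of chromosome 2 at 114047282 to 114053548 (GRCm38).

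Acta1, the skeletal muscle actin, stood at 76.7 and 181.8 normalized counts in the XX Kdm6b-null libraries, against 34.0 and 33.4 in XX wild type. The wild type libraries were nearly equal, both null libraries lay above them, and the null libraries differed 2.37-fold from each other. The fold of the means was 3.84 and the log2 difference 1.78. XX Kdm6b-null replicate 2, the higher of these libraries, had the highest summed level of skeletal muscle genes and of heart genes among the XX libraries. Without it the log2 difference was 1.16 for Acta1 and 2.35 for Actc1, with XX Kdm6b-null replicate 1 as the only null library. The part of other muscle in the difference was not tested. Acta1 (ENSMUSG00000031972.4) lies on the minus strand of chromosome 8 at 123891767 to 123894736.

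The promoters of Actc1, Acta1 and the myosin light chain gene Myl9 are shown. Of the genes with a window, only these hold an exact CArG box, the SRF binding sequence, in capitals below. Actc1 and Acta1 are also the genes whose XX values picked the set. Each line gives the coding strand from 250 bases before to 50 bases after the annotated start (RefSeq, GRCm38.p6), for Actc1 at chr2:114052826-114053125 on the minus strand, Acta1 at chr8:123894726-123895025 on the minus strand and Myl9 at chr2:156775214-156775513 on the plus strand.
Actc1: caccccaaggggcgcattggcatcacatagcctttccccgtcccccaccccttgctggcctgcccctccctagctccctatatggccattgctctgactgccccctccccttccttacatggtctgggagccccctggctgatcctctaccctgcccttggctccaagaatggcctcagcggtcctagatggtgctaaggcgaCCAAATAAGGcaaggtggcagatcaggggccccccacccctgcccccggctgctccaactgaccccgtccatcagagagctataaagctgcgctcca
Acta1: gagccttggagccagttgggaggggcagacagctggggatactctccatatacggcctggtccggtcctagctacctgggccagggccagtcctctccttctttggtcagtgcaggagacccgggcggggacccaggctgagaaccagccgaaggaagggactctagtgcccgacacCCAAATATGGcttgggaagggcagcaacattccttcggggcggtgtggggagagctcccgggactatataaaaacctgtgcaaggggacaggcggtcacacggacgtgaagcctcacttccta
Myl9: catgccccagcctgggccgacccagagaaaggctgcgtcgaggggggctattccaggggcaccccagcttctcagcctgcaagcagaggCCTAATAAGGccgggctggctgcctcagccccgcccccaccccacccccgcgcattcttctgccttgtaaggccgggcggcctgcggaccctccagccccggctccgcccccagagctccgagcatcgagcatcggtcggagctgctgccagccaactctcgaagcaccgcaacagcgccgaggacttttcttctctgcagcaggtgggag
The box begins 47 bases before the annotated start in Actc1, 73 bases before it in Acta1 and 161 bases before it in Myl9. For Actc1 the RefSeq start lies inside the gene as GENCODE M21 draws it. These distances depend on the annotated start, which was not checked. The first TATAAA of the window begins 33 bases after that start in Actc1 and 7 bases before it in Acta1. Counted to that TATAAA, the box begins 80 bases before it in Actc1 and 66 in Acta1. The consensus of the box has 10 letters, with an A or T at each of the 6 inner places, and is the same on both strands. The printed boxes themselves read otherwise on the opposite strand. Exact matches to the consensus were searched. RefSeq windows were given for 7 of the 10 genes, and 3 of these 7 (42.9%) held the exact box, against 488 of the 27025 genes of the table (1.81%). The box is not particular to the set. It was held by 4 of 18 further smooth muscle contractile genes with a window (22.2%) and 2 of 7 SRF and MRTF target genes outside muscle (28.6%). Among heart genes it was in 2 of 19 (10.5%), and among skeletal muscle genes in 0 of 12. Acta2, Cnn1, Des and Tnnt2 had no exact match in their windows. With 1 letter off, 5 of the 7 genes had a match, as did 22.5% of all genes of the table. Myl9, which holds an exact box, had one of the smallest XX differences of the 10 genes. A match describes these letters in these windows, and SRF binding was not measured.

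The smooth muscle actins were higher in XX Kdm6b-null gonads by about the same factor as each other. Acta2, the actin of vascular smooth muscle, had 5621 and 7529 normalized counts in XX Kdm6b-null, against 2505 and 3381 in XX wild type (fold of means 2.23, log2 difference 1.16). Actg2, the actin of visceral smooth muscle, had 691.6 and 1064 in XX Kdm6b-null, against 424.0 and 379.3 in XX wild type (2.19-fold, log2 difference 1.09). For both genes the null and wild type libraries did not overlap, and the lower null library held 1.66 and 1.63 times the count of the higher wild type library. Acta2 lies on chromosome 19 at 34241090 to 34255336 and Actg2 on chromosome 6 at 83512905 to 83536265, both on the minus strand.

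Of the proteins that bind thin filaments, transgelin and calponin gave the same picture. Tagln, which encodes transgelin, an early marker of smooth muscle differentiation, had 2686 and 3998 normalized counts in XX Kdm6b-null, against 1571 and 1649.8 in XX wild type (2.08-fold, log2 difference 1.02). Cnn1, which encodes the calponin of differentiated smooth muscle, had 364.7 and 563.7 in XX Kdm6b-null, against 162.0 and 252.9 in XX wild type (2.24-fold, log2 difference 1.16). Neither gene had overlapping groups. Reads of Tagln can be shared with its neighbour Pcsk7, since 32.7% of the distinct 100-base windows of its transcripts also occur in transcripts of Pcsk7 or a predicted gene, and how the counting treated strand is not stated. Pcsk7 stayed within 587 to 696 normalized counts in all 8 libraries. Tagln lies on the minus strand of chromosome 9 at 45929628 to 45936058 and Cnn1 on the plus strand of the same chromosome at 22099281 to 22109630.

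The myosin genes differed less. Myh11, the smooth muscle myosin heavy chain and the most specific marker of mature smooth muscle, had 414.5 and 696.1 normalized counts in XX Kdm6b-null, against 314.3 and 401.6 in XX wild type. The groups barely separated, the lower null library holding 1.03 times the count of the higher wild type library, with a log2 difference of 0.60. Myl9, a regulatory light chain found in smooth muscle and in non-muscle cells, had 3093 and 3656 in XX Kdm6b-null, against 2920.2 and 2596 in XX wild type, a log2 difference of 0.29. Its groups overlapped when the libraries were rescaled to equal totals and after quantile normalization. Myh11 lies on the minus strand of chromosome 16 at 14194527 to 14291408 and Myl9 on the plus strand of chromosome 2 at 156775420 to 156781658.

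Des and Tnnt2 each stood apart from the other genes in XX, Des in its highest library and Tnnt2 in its lowest. Des encodes desmin, the intermediate filament protein of muscle and of pericytes, and had 1479 and 1326 normalized counts in XX Kdm6b-null, against 767.4 and 757.6 in XX wild type. Its replicates lay close together, the groups were far apart (1.84-fold, log2 difference 0.88), and it alone was not highest in XX Kdm6b-null replicate 2. Tnnt2 encodes cardiac troponin T, which is not a smooth muscle protein, and was low throughout: 14.0 and 67.7 in XX Kdm6b-null, against 34.9 and 38.4 in XX wild type. Its null libraries fell on either side of the wild type pair, so the means gave a ratio of 1.11 while the mean log2 values gave a difference of -0.23, which was 0.87 without XX Kdm6b-null replicate 1. Both genes lie on the plus strand of chromosome 1, Des at 75360329 to 75368579 and Tnnt2 at 135836354 to 135852260.

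Over the set, both XX Kdm6b-null libraries lay above both XX wild type libraries for 9 of the 10 genes, all but Tnnt2, and below them for 0. Of the 17028 genes kept in XX, 27.0% were higher in both null libraries in this way and 22.5% lower, and since the XX values chose the set nothing is read from the count. In 6 genes, Actc1, Acta1, Acta2, Actg2, Tagln and Cnn1, the log2 difference was at least 1, as it was in 0.875% of all genes kept. For the same reason nothing is read from this count or from the median that follows. The median log2 difference of the 10 genes was 1.06, with a range of -0.23 to 2.54, and the median over all genes kept was 0.00068. Leaving out any one XX library gave a median of 0.82 to 1.34. For Actc1, Acta1, Acta2, Tagln, Cnn1 and Des, 6 of the 10, the XX difference was larger than the gap between replicates in any of the 4 groups. The share of all genes kept for which this holds was not computed. Nothing is read from this count either, since the XX values chose the set.

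**Figure D1:**
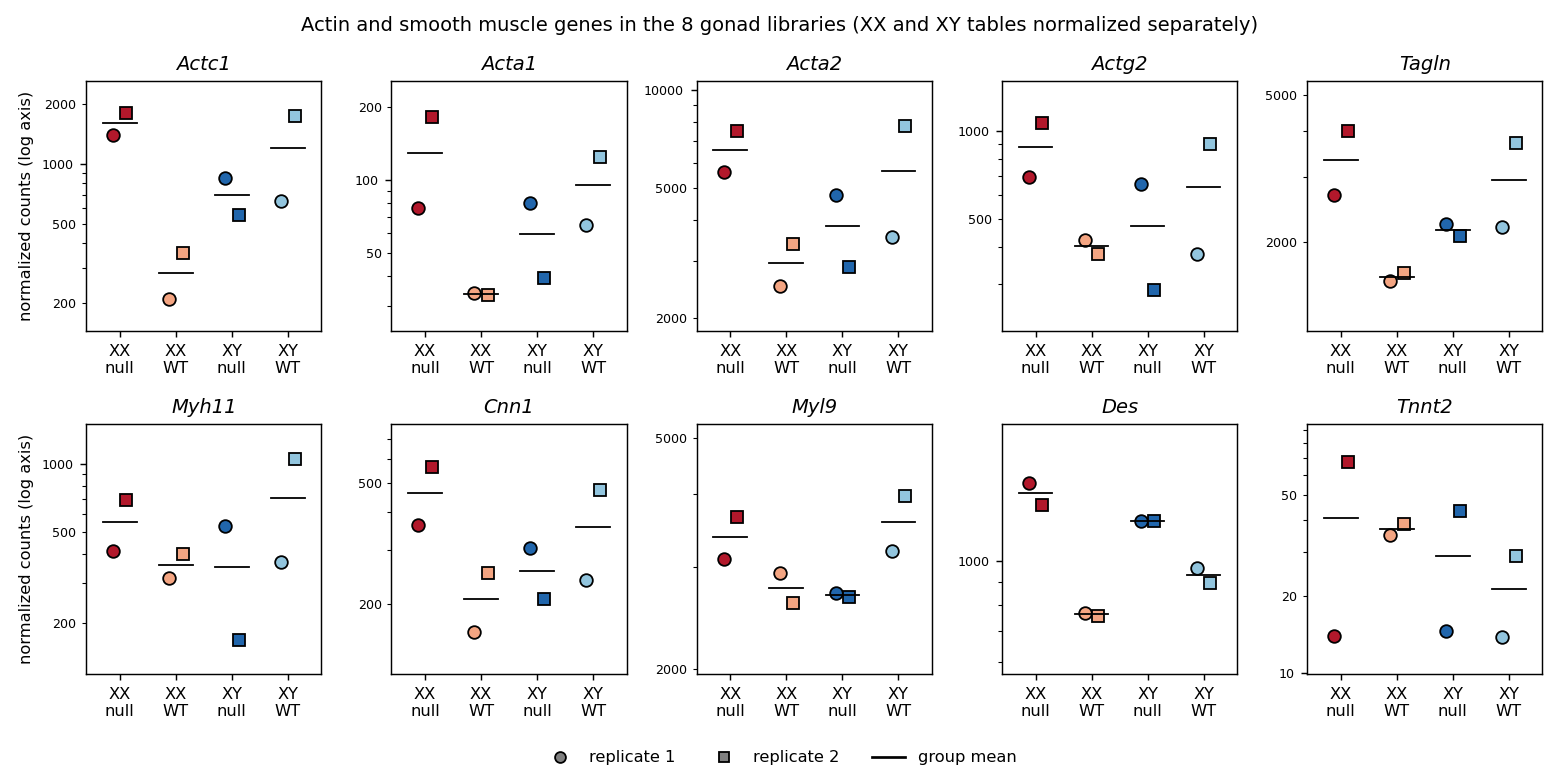
Normalized counts (log axis) of the 10 genes in each library, by sex and genotype (WT, wild type), with circles for replicate 1, squares for replicate 2 and a line at the group mean. In XX, both null libraries lie above both wild type libraries in every panel but Tnnt2, while in XY the groups overlap in every panel but Myl9 and Des.

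In XY gonads the same genes showed no such separation. Actc1 had 842.8 and 549.6 normalized counts in the XY Kdm6b-null libraries, against 652.9 and 1743 in XY wild type. The null values fell on either side of the lower wild type library, and the wild type libraries alone differed 2.67-fold. By limma the XY log2 fold change of Actc1 was -0.65 (SE 0.47), with an adjusted p of 0.999 over the 16821 genes kept in XY. Acta1 had 80.0 and 39.1 in XY Kdm6b-null, against 65.3 and 124.6 in XY wild type, with a log2 fold change of -0.68 (SE 0.46, adjusted p = 0.999 by limma; -1.19 to -0.17 with any one XY library left out). Here too the groups overlapped.

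The other actins and the smooth muscle genes repeated this order of libraries. Acta2 had 4778 and 2864 normalized counts in XY Kdm6b-null, against 3541 and 7771 in XY wild type (log2 fold change -0.50, SE 0.41). Actg2 had 655.5 and 286.1 in XY Kdm6b-null, against 379.9 and 898.2 in XY wild type (-0.43, SE 0.53). Tagln had 2242 and 2081 in XY Kdm6b-null, against 2204 and 3702 in XY wild type (-0.40, SE 0.24). In all 3 genes the first null library lay between the wild type libraries and the second below both.

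Cnn1 and Myh11 had the same arrangement. Cnn1 had 304.3 and 207.9 normalized counts in XY Kdm6b-null, against 239.4 and 475.5 in XY wild type (log2 fold change -0.42, SE 0.36). Myh11 varied most among replicates, with 535.5 and 168.8 in XY Kdm6b-null, against 369.0 and 1049.7 in XY wild type (-1.05, SE 0.68). Its replicates differed 3.17-fold within the null and 2.84-fold within wild type, while the null mean was 0.496 of the wild type mean. Tnnt2 had 14.6 and 43.2 in XY Kdm6b-null, against 13.8 and 28.9 in XY wild type (0.32, SE 0.63). For Tnnt2 and the 7 genes before it the limma adjusted p was 0.999 each. Single libraries weighed on these values. The log2 fold change of Myh11 was -1.88 without XY Kdm6b-null replicate 1, -0.22 without XY Kdm6b-null replicate 2, -1.80 on dropping XY wild type replicate 1 and -0.29 on dropping XY wild type replicate 2. For Tagln it was -0.78 when XY wild type replicate 1 was dropped and -0.029 when XY wild type replicate 2 was.

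Only Des and Myl9 had XY groups that did not overlap. Des had 1219 and 1224 normalized counts in XY Kdm6b-null, against 964.5 and 893.2 in XY wild type. Both null libraries were higher, as in XX, with a log2 fold change of 0.40 (SE 0.081). Its unadjusted limma p was 0.0034 and its adjusted p 0.63. Myl9 had 2706 and 2658 in XY Kdm6b-null, against 3187 and 3978 in XY wild type. Both null libraries were lower, opposite to XX, as separate groups were for 1 of the 10 genes and for 5.17% of all genes kept in both sexes. It had a log2 fold change of -0.41 (SE 0.12), an unadjusted p of 0.015 and an adjusted p of 0.85 by limma.

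No gene of the set passed an adjusted p of 0.05 by limma in XY (0 of 10), and none of all 16821 genes kept did (0.0%). Kdm6b itself was among those not called, with a log2 fold change of -1.54 and an adjusted p of 0.12 by limma. In the authors' DESeq2 comparison its adjusted p was 8.2e-25. Failing this limma test therefore does not show that a gene is unchanged in XY. At an unadjusted p of 0.05, limma gave 1 higher gene (Des), against 2.11% of all genes kept, and 1 lower gene (Myl9), against 2.85%, or 4.96% in either direction. In the authors' deposited table of their DESeq2 comparison 0 of the 10 passed, against 72 of 17890 genes (0.402%), and the smallest adjusted p among the 10 in the authors' deposited table was 0.36, for Myl9. Both XY Kdm6b-null libraries lay above both wild type libraries for 1 gene of 10, against 16.6% of all genes kept, and below them for 1 gene of 10, against 16.3%. Both shares are near the background. The median XY log2 fold change of the set was -0.43, with a range of -1.05 to 0.40, and that over all genes kept was -0.00013. XY wild type replicate 2 weighed on this median, which was 0.061 without that library (6 genes above 0 and 4 below), -0.98 without XY wild type replicate 1, -0.78 without XY Kdm6b-null replicate 1 and -0.19 without XY Kdm6b-null replicate 2. For 8 of the 10 genes the XY difference was smaller than the gap between the XY wild type replicates. How often this holds over all genes kept was not computed, so nothing particular to the set is read from it. Whether the XX and XY differences differ from each other was not tested, since the XX values chose the genes.

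**Figure D2:**
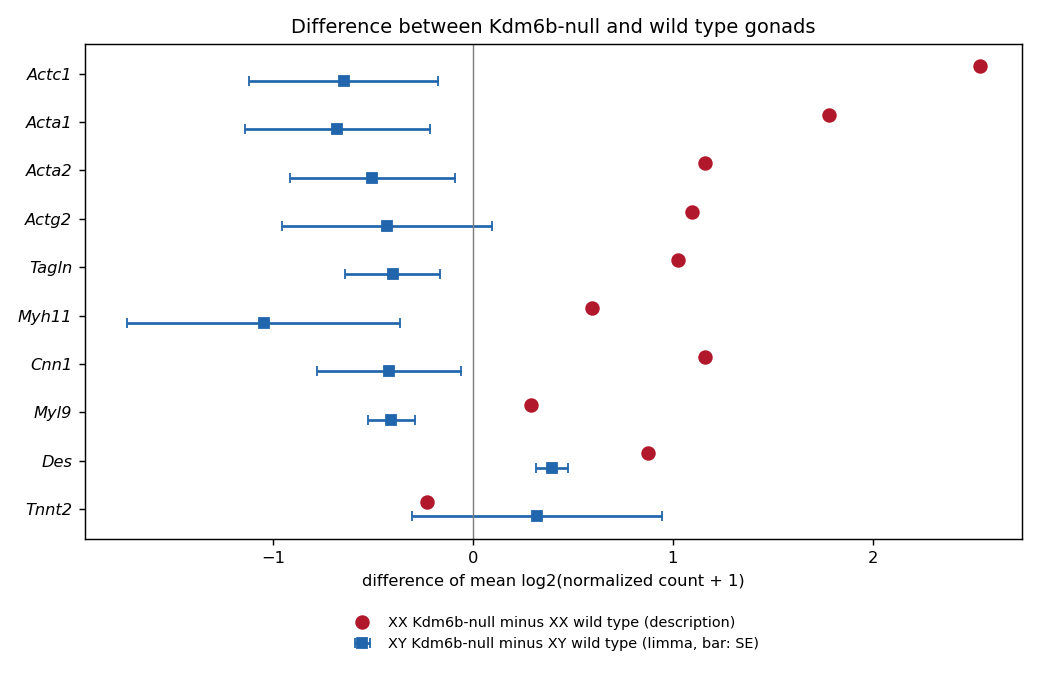
Difference of mean log2(normalized count + 1), Kdm6b-null minus wild type, for each gene in XX (circles, no test) and XY (squares with the limma standard error). The XX differences of 9 genes lie above 0, up to 2.54 for Actc1, and the XY differences lie between -1.05 and 0.40, with 8 of 10 below 0.

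In XY the genes ranked the libraries alike. XY wild type replicate 2 was the highest of the 4 XY libraries for 8 of the 10 genes, which it was for 22.9% of all genes kept. XY Kdm6b-null replicate 2 was the lowest for the same 8 genes, all but Des and Tnnt2, and for 26.6% of all genes kept. Among the XX libraries, Kdm6b-null replicate 2 was the highest for 9 of the 10 genes, all but Des, and for 21.3% of all genes kept, but the genes were chosen for being high in the XX null, so nothing is read from that count. The counts of endothelial genes followed part of the XY order. Summed over 10 endothelial genes, the normalized counts were 18811 and 18604 in XX Kdm6b-null, against 12376 and 13839 in XX wild type. The XY Kdm6b-null sums were 16979 and 15746, against 16233 and 21606 in XY wild type. The lowest XY sum was that of Kdm6b-null replicate 2 and the highest that of wild type replicate 2, as for the muscle genes. What part vessel content has in the muscle gene differences was not tested.

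**Figure D3:**
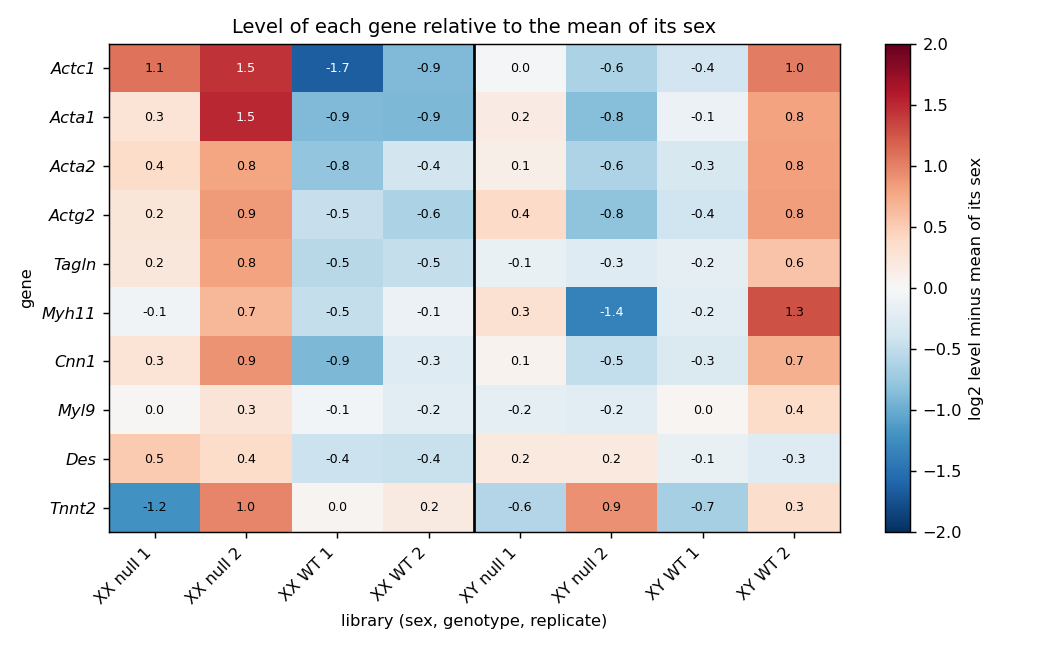
Level of each gene in each library as log2(normalized count + 1) minus the mean of the 4 libraries of that sex, by row, with the XX libraries left of the line and the XY libraries right of it. XX Kdm6b-null replicate 2 and XY wild type replicate 2 are the highest libraries of their sex in most rows, and XY Kdm6b-null replicate 2 the lowest of the XY libraries in 8 of 10.

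Levels of different genes were compared per kilobase of exon. The XX Kdm6b-null means were led by Acta2 (2994 normalized counts per kb) and Myl9 (2904), whose libraries overlapped, then Tagln (1681), Actc1 (986), Actg2 (564), Des (374) and Cnn1 (170), then Acta1 (84.2) and Myh11 (73.1), which overlapped, and last Tnnt2 (5.27). In XX wild type the order was Myl9 (2373), Acta2 (1340), Tagln (810.0), Actg2 (258), Des (203), Actc1 (174), Cnn1 (75.8), Myh11 (47.1), Acta1 (21.9) and Tnnt2 (4.73). There the Actc1 libraries, at 129 and 219 per kb, spanned those of Des at 204 and 202, and lay below both Actg2 libraries at 272 and 244. Actc1 was thus below Actg2 in XX wild type and above it in XX Kdm6b-null, where it had 862 and 1110 per kb, against 444 and 683 for Actg2. In XY Kdm6b-null the means ran from Myl9 (2308) and Acta2 (1740) through Tagln (1087), Actc1 (430), Des (325), Actg2 (302), Cnn1 (93.6), Myh11 (46.3) and Acta1 (38.8) to Tnnt2 (3.73), with the libraries of Actg2 overlapping those of Actc1 and Des and those of Myh11 overlapping those of Acta1. In XY wild type they ran from Myl9 (3083), Acta2 (2575), Tagln (1485), Actc1 (740.3), Actg2 (410), Des (247), Cnn1 (131), Myh11 (93.3) and Acta1 (61.8) to Tnnt2 (2.76). There the libraries overlapped between Myl9 and Acta2, Acta2 and Tagln, Actc1 and Actg2, Actg2 and Des, Cnn1 and Myh11, and Myh11 and Acta1. Actg2 had 244 and 577 per kb in XY wild type, on either side of Des at 257 and 238, so those genes have no settled order.

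The mix of the 4 muscle actins also differed in XX. Their summed level was 3916 and 5340 normalized counts per kb in XX Kdm6b-null, against 1564 and 2024 in XX wild type. Actc1 made up 22.0% and 20.8% of that sum in XX Kdm6b-null, against 8.24% and 10.8% in XX wild type. In XY the sum was 3170 and 1853 per kb in Kdm6b-null, against 2302 and 5274 in wild type, and the share of Actc1 was 16.4% and 18.3%, against 17.5% and 20.4%. The XX wild type libraries therefore had the lowest shares of Actc1 among the 8, and the XY shares of the genotypes lay side by side although their sums ranged from 1853 to 5274 per kb. Acta2 was the main muscle actin everywhere, at 64.2 to 76.1% of the sum, and Actg2 made up 9.92 to 17.4% and Acta1 1.07 to 2.22%. A share is taken within a library, so a scale factor between the XX and XY tables does not enter it.

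**Figure D4:**
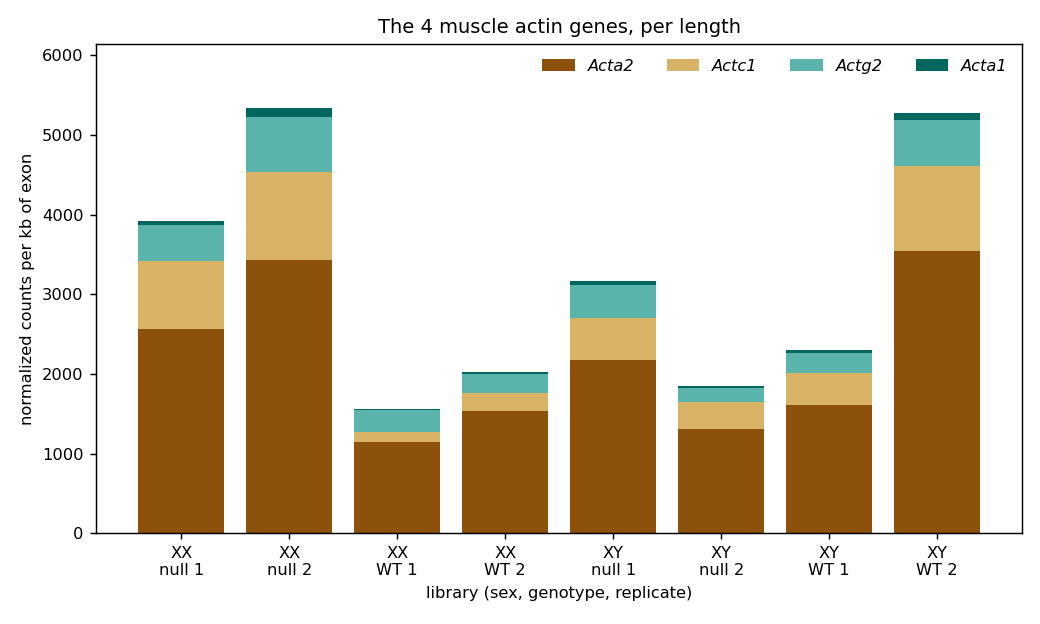
Stacked bars of the 4 muscle actin genes in each library, in normalized counts per kb of exon. The XX Kdm6b-null bars reach 3916 and 5340, against 1564 and 2024 in XX wild type, and the Actc1 segment is the one that takes a larger share, 22.0% and 20.8% against 8.24% and 10.8%.

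The genes most like Actc1 over the 8 libraries were ranked by the root mean square difference of their log2 values after centring each sex on its own mean, among 16567 genes kept in both sexes. The closest was Col5a3, a chain of the fibrillar collagen V, at 0.38. It had 266.1 and 279.8 normalized counts in XX Kdm6b-null, against 60.2 and 128.5 in XX wild type. In the XY Kdm6b-null libraries it had 215.6 and 91.6, against 110.8 and 375.8 in XY wild type. Acta1 followed at 0.43, then Ankrd1, a nuclear and sarcomeric ankyrin repeat protein, at 0.44, Myom1, the M-band protein myomesin, at 0.45, and Vwf, the von Willebrand factor of endothelial cells, at 0.47. The sarcomere gene Myom1 had 336.8 and 595.0 in XX Kdm6b-null, against 146.5 and 198.3 in XX wild type. Vwf had 3541 and 3909 in XX Kdm6b-null, against 1314 and 1731 in XX wild type. Of the other genes of the set, Acta2 came 6th, Cnn1 8th, Actg2 19th and Tagln 25th, while Myh11 was 165th, Des 519th, Myl9 1154th and Tnnt2 15065th. All of these genes were read from the same 8 libraries and share their depth, and the ranking is a description.

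Beyond the set, 20 further smooth muscle contractile genes differed by less. In XX, 17 of the 20 were above 0 and 3 below, with a median log2 difference of 0.27 (0.21 to 0.36 when any one library was left out). In XY, 4 were above 0 and 16 below, with a median of -0.14 (-0.28 to -0.017), and 0 of the 20 passed by limma in either direction. Lmod1, the smooth muscle leiomodin, had 127.6 and 135.4 normalized counts in XX Kdm6b-null, against 40.7 and 85.0 in XX wild type, while XY Kdm6b-null had 105.3 and 64.8, against 49.5 and 131.6 in XY wild type. Itga8, an integrin chain of mesenchyme, stood on the other side, with 1257 and 1128 in XX Kdm6b-null, against 2557 and 1681 in XX wild type. It was also lower in both XY Kdm6b-null libraries, at 1287 and 1030, against 2054 and 1521 in XY wild type (limma adjusted p = 0.85).

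The regulators of these genes were measured too. Of 12 SRF and MRTF regulators, 10 were kept, with 8 above 0 and 2 below in XX (median 0.24, and 0.083 without XX wild type replicate 1) and 5 on each side in XY (median -0.041, and between -0.045 and 0.050 with a library left out). Mrtfb had 2111 and 2008 normalized counts in XX Kdm6b-null, against 1222 and 1530 in XX wild type, and Mrtfa had 1031 and 1037, against 672 and 730.3. Both coactivators were higher in every XX null library than in any XX wild type library. In XY the corresponding values were 1959.6 and 1821 in Kdm6b-null, against 1716 and 1769.5 in wild type, for Mrtfb, and 1079 and 987 in Kdm6b-null, against 915 and 954 in wild type, for Mrtfa. These groups did not overlap either, but neither gene passed by limma (adjusted p = 0.999 for each). Srf had 1952 and 1863 in XX Kdm6b-null, against 1245 and 1770.2 in XX wild type.

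Target genes of SRF outside muscle lay mostly above 0 in XX, 7 above 0 and 2 below among 9 kept, with a median of 0.44. Both null libraries lay above both wild type libraries for 5 of the 9, against 27.0% of all genes kept. They lay below for 2, against 22.5%. Ankrd1, among the 7 above 0, had 29.9 and 50.5 normalized counts in XX Kdm6b-null, against 12.6 and 11.1 in XX wild type. The 2 genes below 0 were Egr1 and Vil1. Egr1, an immediate early transcription factor, had 80.7 and 86.9 normalized counts in XX Kdm6b-null, against 202.8 and 131.5 in XX wild type. Vil1, the microvillus protein villin, had 20.9 and 36.4 in XX Kdm6b-null, against 65.0 and 56.6 in XX wild type. In XY 4 of these genes were above 0 and 5 below. The 16 cytoplasmic actin and actin dynamics genes differed little, with medians of 0.14 in XX (12 above 0, 4 below) and -0.012 in XY (7 above 0, 9 below). Actb and Actg1, the actins of every cell, had 52166 and 52194 and 32840 and 35759 normalized counts in XX Kdm6b-null, against 35312 and 47730 and 22445 and 27330 in XX wild type. Both were lower in the XX wild type libraries than in either null library, by log2 differences of 0.35 and 0.47, less than the 2.54 of Actc1.

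Genes of heart and skeletal muscle did not follow the set as a whole. Of 20 heart genes 12 were kept in XX, with 7 above 0, 5 below and a median of 0.11, which was -0.23 without XX Kdm6b-null replicate 2 and 0.87 without XX Kdm6b-null replicate 1. The heart hormone Nppa stayed at 0 to 2.99 normalized counts and the ventricular light chain Myl2 at 0 to 7.76 in all libraries, both near the 2.91 to 3.09 that 3 counts are worth. Myh6, the atrial myosin, had 51.8 and 71.7 in XX Kdm6b-null, against 27.2 and 16.2 in XX wild type, and Tnni1, the slow skeletal and embryonic troponin I, had 426.5 and 563.7, against 332.8 and 174.0. Of 18 skeletal muscle genes 12 were kept in XX, with 5 above 0, 7 below and a median of -0.24, which was -0.93 without XX Kdm6b-null replicate 2 and 0.56 without XX Kdm6b-null replicate 1. Their summed level was 362.7 and 1058 in XX Kdm6b-null, against 736.4 and 509.8 in XX wild type. The fast troponin T gene Tnnt3 had 78.7 and 117.2 in XX Kdm6b-null, against 66.9 and 66.8 in XX wild type. Muscle creatine kinase Ckm was at 0 in 5 of the 8 libraries and never above 3.03.

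Vessel-wall genes were on the side of the set in XX. Of 12 mural cell and pericyte genes, 9 were above 0 in XX and 3 below, with a median of 0.37 (0.14 to 0.50 with a library left out), and their summed level was 18656 and 19467 normalized counts in XX Kdm6b-null, against 14201 and 14218 in XX wild type. The mural factor Tbx18 had 1007 and 871 in XX Kdm6b-null, against 506 and 541 in XX wild type, while the channel gene Kcnj8 had 82.7 and 94.0, against 212.5 and 160.8. The 10 endothelial genes were all above 0 in XX, with a median of 0.44 (0.41 to 0.54 with a library left out), and Plvap had 1980.0 and 2090.2 in XX Kdm6b-null, against 944 and 1204 in XX wild type. In XY the medians were -0.095 for mural and -0.23 for endothelial genes, and the endothelial one was 0.029 without XY wild type replicate 2. Of the mural genes, 0 passed by limma in XY, as of every list examined.

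Lists of other cell types of the gonad had XX medians on both sides of 0. Those of the gonad somatic and mesonephros lists were near the mural and endothelial medians of 0.37 and 0.44. The 7 gonad somatic genes had medians of 0.41 in XX (7 above 0; 0.12 without XX wild type replicate 2) and -0.27 in XY (7 below 0; -0.55 without XY Kdm6b-null replicate 2). The 12 erythroid genes had a median of -0.73 in XX (-1.13 without XX wild type replicate 1 and -0.45 without XX wild type replicate 2), and their summed level was 124274 and 117038 in XX Kdm6b-null, against 195893 and 252596 in XX wild type. Among them the adult globin Hbb-bs had 806 and 342.5 in XX Kdm6b-null, against 5101 and 1683 in XX wild type. Macrophage genes had a median of -0.27 in XX, which was 0.063 without XX wild type replicate 1, and germ cell genes one of -0.30, which was 0.42 without that library. The receptor gene Kit, of the germ cell list but also made in other cells, stood against its list, with 2347 and 2080.1 in XX Kdm6b-null, against 1070.1 and 1299 in XX wild type. Genes of the mesonephros and its duct had a median of 0.38 in XX (0.62 without XX wild type replicate 1 and 0.21 without XX wild type replicate 2) and 0.010 in XY (-0.27 to 0.28 with a library left out). Those of TGF-beta signalling and mesenchyme had one of 0.15 in XX (0.085 without XX wild type replicate 2) and -0.088 in XY (-0.20 to 0.029). Among these, the matrix protein Fn1 had 36703 and 38897 in XX Kdm6b-null, against 20188 and 20512 in XX wild type. In XY it had 36430.3 and 21983 in Kdm6b-null, against 24144 and 37814 in wild type, the order of libraries seen for the smooth muscle genes. The coelomic epithelium list had medians of -0.21 in XX, which was 0.033 without XX wild type replicate 1, and 0.12 in XY (-0.16 to 0.42 with a library left out). Neural crest and neuron genes had a median of -0.26 in XX, which was -0.46 without XX Kdm6b-null replicate 1 and -0.050 without XX Kdm6b-null replicate 2, and of -0.15 in XY (-0.37 to -0.020). The part of these cell types in the muscle gene differences was not tested.

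**Figure D5:**
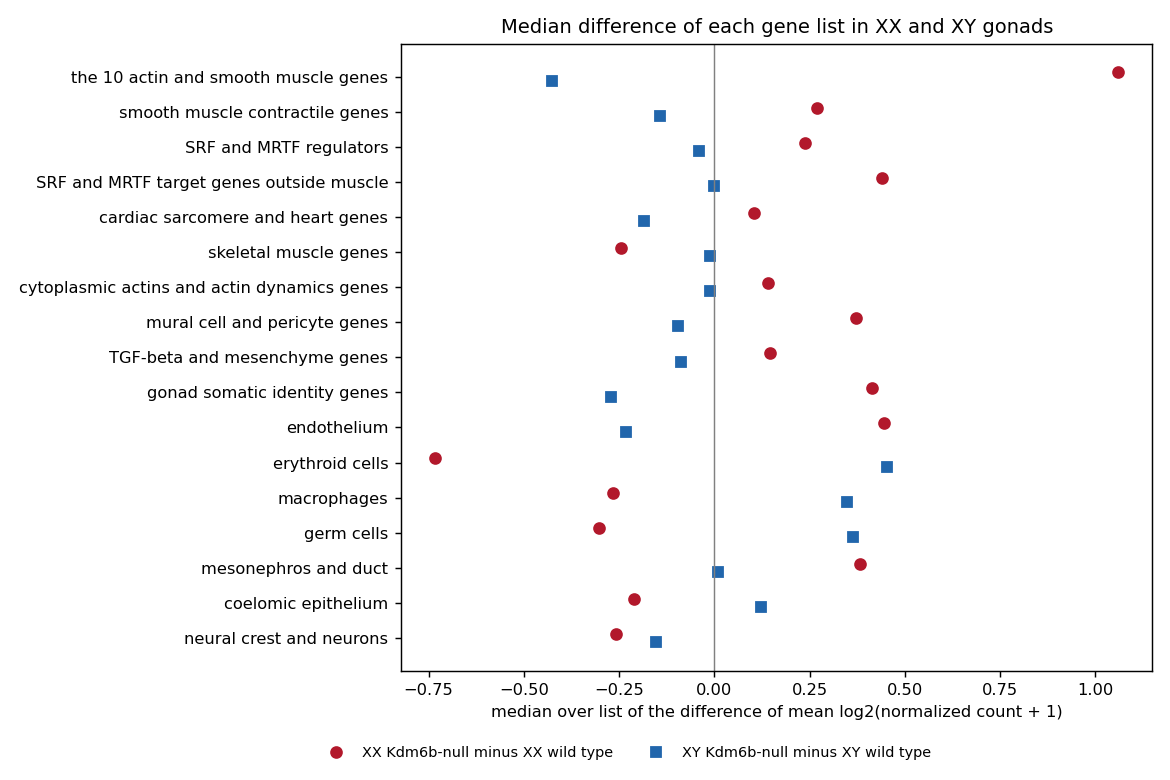
Median difference of mean log2(normalized count + 1), Kdm6b-null minus wild type, over the 10 actin and smooth muscle genes and over 16 other gene lists, in XX (circles) and XY (squares). The 10 genes, chosen on the XX values, have medians of 1.06 in XX and -0.43 in XY, and the medians of the other lists lie between -0.73 and 0.45.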

How the data were processed

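RNA of 8 pools of E11.5 mouse gonads was read as 100-base paired reads, per the labels' protocols. Per the submitters' processing notes, the authors used DESeq2 2.11.40.8, featureCounts 2.0.8, STAR 2.7.11 and cutadapt 4.9, with the build GRCm38 (mm10). The strand setting, annotation and filters used by the authors are not stated in the labels or headers. The signal deposited by the authors is a normalized count per gene, with XX and XY libraries scaled separately by 1 size factor per library. Each library's nonzero values were whole multiples of 1 step (tolerance 1e-06 steps). Depths take a step as 1 count, and 3 counts are the limit that a 0 allows. The authors also deposited DESeq2 tables with a log2 fold change, a p-value and a Wald score for each gene. The score was not used, and of these tables the XY values alone are printed, since the XX table has no header. All value columns matched a sample by title, leaving 0.

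In R 4.3.3, limma 3.58.1 was run on log2(normalized count + 1) with a variance trend, genotype as the only term and Benjamini-Hochberg adjustment at 0.05, on the 4 XY libraries and genes with a mean of at least 10. The fit has 2 residual degrees of freedom and was tested on simulated data. Those data had larger changes than the XY differences of the 10 genes, and a small, even spread between replicates. They do not show how often changes of the size seen here would be called. Because of the added 1, log2 fold changes of low genes come out too small. A model of counts was planned for whole counts and not run, since the deposited values are scaled. Levels per kb used the union of exons in GENCODE M21. The 10 genes and the 16 lists (197 genes, all found) were chosen with earlier results of these data known. Named beside the 10 genes and Kdm6b were, in each list without a called gene, the 2 with the largest XX difference among those with separate groups and a group mean of at least 50, the 5 genes nearest to Actc1, markers of the labelled and of other tissue, and Srf and Pcsk7, chosen after their values were seen. Alternatives covered pseudocounts of 0.5 and 5, filters, scaling, the variance trend, 1 fit of all 8 libraries, a replicate block, each library left out, and the authors' comparison.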

Additional observations from a re-analysis of the deposited data

Results flagged for a closer look

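A gene was listed here where both Kdm6b-null libraries lay above both wild type libraries in one sex and below them in the other. This held for 1 of the 10 genes and for 12 of the 175 other list genes kept in both sexes (6.86%), against 856 of all 16567 genes kept in both (5.17%), so the share in the lists is near the background. The difference between the sexes was not tested, and genes named here alone were chosen after their values were seen. Among the 10 genes this was Myl9, whose XX log2 difference minus its XY log2 difference was 0.70. Among genes of the lists, the difference was 1.05 for Lhx1, a factor of the early gonad and mesonephros, with 109.6 and 101.0 normalized counts in XX Kdm6b-null, against 97.0 and 38.4 in XX wild type. Its XY Kdm6b-null libraries had 117.1 and 123.5, against 141.5 and 149.5 in XY wild type. It was -0.79 for C1qb, a complement gene of macrophages, with 293.0 and 247.5 in XX Kdm6b-null, against 367.7 and 322.7 in XX wild type. Its XY Kdm6b-null libraries had 278.0 and 391.1, against 247.3 and 239.3 in XY wild type. It was -1.88 for Upk1b, a uroplakin of the coelomic epithelium, with 123.6 and 86.9 in XX Kdm6b-null, against 304.6 and 196.2 in XX wild type. Its XY Kdm6b-null libraries had 202.9 and 186.3, against 179.1 and 84.7 in XY wild type. The other genes higher in the XX null and lower in the XY null were Gata4 (1.01), Tek (0.98), Cldn5 (0.64), Pdgfrb (0.52), Csrp1 (0.49), Smtn (0.49) and Rhoa (0.21). Those lower in the XX null and higher in the XY null were the adult globin Hbb-bt (-4.42) and the profilin Pfn2 (-0.22), each value being the XX log2 difference minus the XY one.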

How the results depend on the processing

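By limma 0 of the 10 genes passed in XY under every setting run, also in the authors' deposited table; with a filter of 50 Tnnt2 was not among the genes tested. Over all XY genes the count was 0, and it was 1 without the variance trend, 23 with the replicate block, 72 in the authors' deposited table and 0 to 2 with a library left out. The replicate numbers mark no stated pairing: the deviations of same-numbered libraries correlated at 0.24 in XY and -0.062 in XX over genes, and the block changed no call among the 10 genes. XY genes of the set with separate groups numbered 2, and 2 to 10 with a library left out (10 without XY Kdm6b-null replicate 1 and 9 without XY wild type replicate 1, where 1 library stands alone). This alternative was chosen after seeing the data. XX genes with separate groups numbered 9, 8 under either other scaling (Myl9 overlapping) and 9 to 10 with a library left out.

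Of the XY log2 fold changes, 132 kept their direction and their side of the threshold and 7 turned round, all with a library left out. With a library left out Myh11 lay between -1.88 and -0.22, Acta1 between -1.19 and -0.17, Tagln between -0.78 and -0.029 and Myl9 between -0.57 and -0.25. Without XY wild type replicate 1 the values were -1.36 for Actc1, -1.07 for Acta2, -1.05 for Actg2, -0.92 for Cnn1 and -0.19 for Tnnt2. Without XY wild type replicate 2 they were 0.060 for Actc1, 0.063 for Acta2, 0.19 for Actg2 and 0.071 for Cnn1. Without XY Kdm6b-null replicate 2 they were 0.17 for Actg2 and -0.43 for Tnnt2, and without XY Kdm6b-null replicate 1 it was 1.07 for Tnnt2. In XX, Tnnt2 was at 0.87 without Kdm6b-null replicate 1 and at -1.33 without Kdm6b-null replicate 2. The cause was not tested. Recomputed once under each alternative, the medians of the other lists stayed within the spread between replicates 80 times in XX and 86 times in XY, and shifted by more 16 and 10 times. Precision was limited by 2 pools per group, and for Tnnt2 and the heart and skeletal genes also by low counts.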
